A study of Mus musculus with 21 samples.

Results

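The scaffolds that hold receptors in place at the receiving side of synapses were followed through their mRNA in 9 genes, Shank1, Shank2, Shank3, Dlg2, Dlg3, Dlg4, Dlgap1, Homer1 and Gphn. The genes were chosen by name, and all 9 were among the 16318 genes of the count table and among the 16303 that passed the filter on low counts. The libraries came from whole brains of 21 SAMP8 mice, a senescence-accelerated inbred strain used as a model of sporadic Alzheimer's disease, with 1 library per mouse. HsTX1[R14A], a peptide that blocks the potassium channel Kv1.3, was injected under the skin in 9 mice (3 female and 6 male) over 8 weeks, on alternate days and at a dose of 1 mg/kg. Phosphate-buffered saline (PBS) was given in the same way to 12 mice (6 female and 6 male). Dosing began at 4 months of age, all mice were SAMP8 and 6 months old at the end, and their brains were flushed with PBS before removal. Sample titles spell the peptide HxTX1[R14A]. No brain of a control strain was analysed here, so all values compare treated with untreated SAMP8 mice. The comparison of the treatments asked how a blocker of Kv1.3 altered the brain's mRNA in this strain.

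An excitatory synapse carries a dense protein plate under its membrane, the postsynaptic density, built in layers. Membrane-associated guanylate kinases of the Dlg family sit closest to the membrane and bind the tails of NMDA receptors and of AMPA receptor auxiliary subunits. Dlgap proteins bind the guanylate kinase domain of the Dlg proteins and the PDZ domain of Shank proteins, and Shank proteins bind Homer, which reaches to metabotropic glutamate receptors and to calcium stores. Inhibitory synapses lack this plate, and gephyrin, the product of Gphn, clusters their glycine and GABA-A receptors. Shank and Homer proteins are abundant at the dendritic spines of forebrain neurons, and Shank1 and Dlg4 mRNA is carried into dendrites.

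Start sites of some of these genes are shown because the genes all act on the receiving side of synapses, while the promoters listed for them differ in base composition. In the RefSeq promoter table for GRCm38.p6, 7 of the 9 genes had at least 1 window of 300 bases (250 before to 50 after the start), 14 windows in all. Shank1 and Shank2 had none. The windows below belong to Shank3, whose level varied widely between mice, to Dlg3, which differed between the treatments, to Homer1, which an activity-dependent short form makes of interest, and to Gphn, whose level varied least. Each is printed 5′ to 3′, and capitals mark the GC box GGGCGG or its reverse complement.
Shank3 (chr15:89499358-89499657, plus strand): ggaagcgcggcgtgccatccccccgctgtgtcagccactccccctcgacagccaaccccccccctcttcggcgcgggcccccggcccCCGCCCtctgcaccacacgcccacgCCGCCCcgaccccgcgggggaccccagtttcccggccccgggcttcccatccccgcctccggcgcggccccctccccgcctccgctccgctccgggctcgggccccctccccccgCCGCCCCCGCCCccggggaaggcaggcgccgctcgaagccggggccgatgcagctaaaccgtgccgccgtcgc
Dlg3 (chrX:100777021-100777320, plus strand): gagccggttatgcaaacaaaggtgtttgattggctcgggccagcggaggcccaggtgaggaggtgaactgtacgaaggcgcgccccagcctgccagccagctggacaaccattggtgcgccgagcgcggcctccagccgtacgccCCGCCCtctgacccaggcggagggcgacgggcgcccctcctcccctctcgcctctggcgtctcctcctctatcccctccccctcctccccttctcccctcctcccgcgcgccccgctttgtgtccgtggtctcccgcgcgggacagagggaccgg
Homer1 (chr13:93303507-93303806, plus strand): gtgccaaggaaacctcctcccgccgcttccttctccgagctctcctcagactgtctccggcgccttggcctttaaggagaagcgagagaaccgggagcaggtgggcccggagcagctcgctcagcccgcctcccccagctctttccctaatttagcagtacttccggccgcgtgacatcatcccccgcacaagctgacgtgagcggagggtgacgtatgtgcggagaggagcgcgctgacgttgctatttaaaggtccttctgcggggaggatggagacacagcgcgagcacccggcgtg
Gphn (chr12:78226405-78226704, plus strand): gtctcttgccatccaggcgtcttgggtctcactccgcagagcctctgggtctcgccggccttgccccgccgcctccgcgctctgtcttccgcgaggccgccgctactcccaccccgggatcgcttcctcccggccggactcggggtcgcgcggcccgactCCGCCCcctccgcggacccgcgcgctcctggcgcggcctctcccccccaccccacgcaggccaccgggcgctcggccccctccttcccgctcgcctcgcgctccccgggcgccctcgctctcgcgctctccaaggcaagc
The Shank3 and Gphn windows were 81.0% and 77.0% G and C, against a median of 52.7% over 32851 windows. Shank3 had a wide and Gphn a narrow spread of levels, and the part of promoter composition in the spread was not tested. The Shank3 window held 4 GC boxes, the Dlg3 and Gphn windows 1 each and the Homer1 window 0. Dlg3 and Homer1 have 2 windows each in the table, of which the one richer in G and C is printed, and the unprinted Dlg3 window (56.7% G and C) and Homer1 window (44.7%) held 0 GC boxes. A GC box was found in 4 of the 14 windows and in 35.7% of all windows. The letters TGACGTCA, the full cAMP response element, were in 0 of the 14 windows and in 1.79% of all windows, both strands being searched. TATAAA was found in 1 window, at a Dlg2 start (13.6% of all windows), and the E-box CACGTG in 1 window, at a Dlgap1 start (7.15% of all windows). The cAMP response element and the E-box share the core letters ACGT, and a match is only a match of letters.

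All 9 genes lie on the plus strand of GRCm38. Shank1 (ENSMUSG00000038738) spans 44310253 to 44360572 on chromosome 7, Shank2 (ENSMUSG00000037541) spans 144001928 to 144424494 on chromosome 7, and Shank3 (ENSMUSG00000022623) spans 89499623 to 89560261 on chromosome 15. Dlg2 (ENSMUSG00000052572) spans 90476672 to 92449247 on chromosome 7, Dlg3 (ENSMUSG00000000881) spans 100767722 to 100818410 on chromosome X, and Dlg4 (ENSMUSG00000020886) spans 70016942 to 70047522 on chromosome 11. Dlgap1 (ENSMUSG00000003279) spans 69969073 to 70821413 on chromosome 17, Homer1 (ENSMUSG00000007617) spans 93299635 to 93405129 on chromosome 13, and Gphn (ENSMUSG00000047454) spans 78226379 to 78684772 on chromosome 12. Their longest GENCODE transcripts run from 3570 bases in Gphn to 9826 in Shank1, and only Gphn is close to the median of 3284 bases over the tested genes. G and C make up 61.4% of the longest transcript in Shank1, 62.4% in Shank3 and 55.0% in Shank2, but 36.9% in Homer1. Exons of Shank1, Shank3, Dlgap1 and Gphn overlap exons of a gene on the opposite strand, and those of Dlg2 overlap 2 genes on its own strand. The paper's methods name a directional library kit, but the labels name a different kit. Whether the counting used strand is not given in the sources used here, so reads of these overlaps cannot be assigned with certainty. Values are per gene, so the short, activity-dependent form of Homer1 and its long forms are counted together.

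Library totals ran from 14917174 to 47613792 counts, and every member had at least 276 counts in every mouse, so spread between mice and not the sampling of reads set the precision. The libraries differed in a property that touches several members. For each library, the log2 CPM (counts per library total, TMM-scaled) of all genes but these 9, centered for each gene on its mean, was fitted as a line on log2 longest-transcript length. In PBS mice this length slope averaged -0.0763 ± 0.161 (SD, n = 12), in treated mice 0.102 ± 0.119 (SD, n = 9), with a sex-averaged difference of 0.201 (exact permutation of treatment within sex, two-sided, p = 0.0063). A slope per 10 percentage points of GC content differed likewise by 0.175 (same exact test, p = 0.0112). The 5 libraries with a length slope under -0.1 came from PBS mice 103, 90, 101 and 73 and from HsTX1[R14A] mouse 93. Column headers name the libraries in 2 forms, SAMP8 (10 PBS and 5 HsTX1[R14A] mice) and SAMP (2 PBS and 4 HsTX1[R14A] mice), and what the forms stand for is not stated. Results are therefore also given without the 5 libraries, within each name form, and with these properties in the model.

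Per transcript length, Dlg4 was the most abundant scaffold and Shank2 the least. Dlg4 encodes PSD-95, the major guanylate kinase of the excitatory postsynaptic density, and its median in PBS mice was 108 CPM per kb of longest transcript. Dlgap1 followed with 66.2, Homer1 with 42.2, Dlg2 with 31.1, Shank1 with 27.6, Dlg3 with 26.8, Shank3 with 25.5, Gphn with 16.1 and Shank2 with 9.77 CPM per kb. The ranges of every pair of neighbours in this order overlapped among PBS mice. Dlg4 exceeded Dlgap1 in 20 of 21 mice, Dlgap1 exceeded Homer1 in 21 and Homer1 exceeded Dlg2 in 18. Among the genes in the middle, Dlg2 exceeded Shank1 in 11 mice, Shank1 exceeded Dlg3 in 13 and Dlg3 exceeded Shank3 in 11, so their order changed from mouse to mouse. With the median length of the protein-coding transcripts as the length, an alternative chosen after seeing the data, Dlg4, Dlgap1, Homer1 and Dlg2 kept ranks 1 to 4 and Gphn and Shank2 ranks 8 and 9, while Shank3 moved from rank 7 to rank 5. That median length is 931 bases over 17 transcripts for Dlg4, whose longest transcript has 6326 bases, but 3435 against 3570 bases for Gphn. The alternative thus raises genes with many short annotated transcripts and cannot check the rank of Dlg4.

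**Figure D1:**
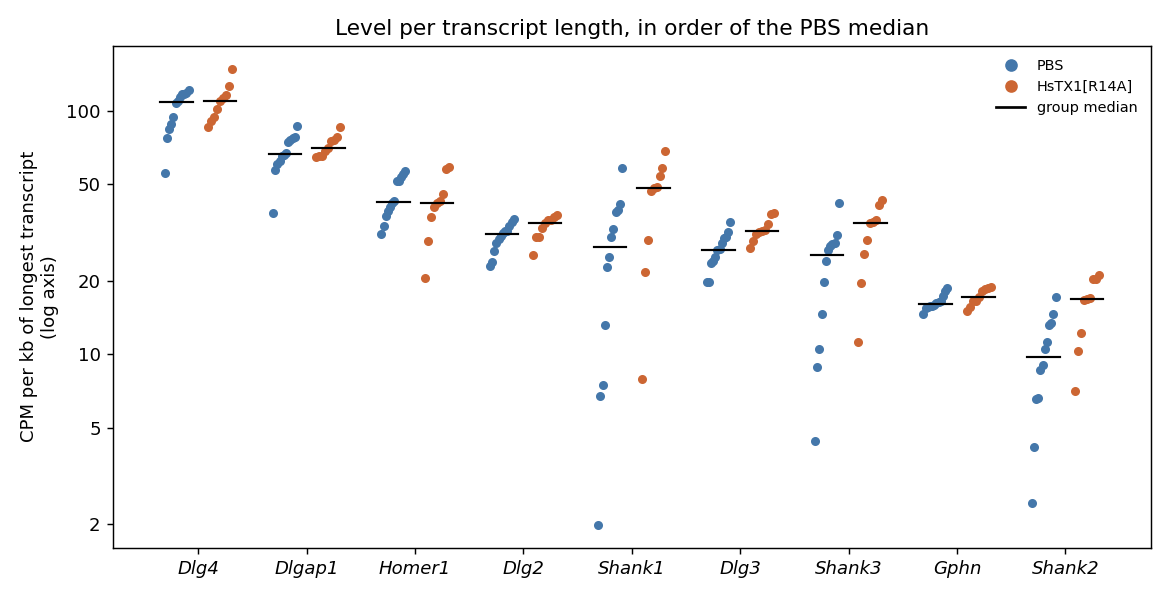
Level of each gene in CPM per kb of longest transcript (log axis), 1 point per mouse, PBS in blue (n = 12) and HsTX1[R14A] in orange (n = 9), with black lines at the group medians and genes ordered by the PBS median. Dlg4 stood highest and Shank2 lowest, and the 3 Shank genes had the longest tails toward low levels, down to 1.99 CPM per kb for Shank1.

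The Shank genes, which encode the deep scaffolds that join Dlgap to Homer, varied most between mice that had received only PBS. Shank1 ranged from 19.6 CPM in PBS mouse 103 to 569 CPM in PBS mouse 84, with a median of 271 CPM. Shank3 ranged from 32.4 to 309 CPM around a median of 188 CPM, and Shank2 from 21.9 to 154 CPM around 87.8 CPM, with the same mice at both ends. The SD of log2 CPM over the 12 PBS mice was 1.42 for Shank1, 0.94 for Shank3 and 0.81 for Shank2. A larger SD was found in 0.779% of tested genes for Shank1, 2.28% for Shank3 and 3.77% for Shank2, and among the 10462 genes of mean log2 CPM 3 or more in 0.0956% for Shank1.

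The Dlg and Dlgap genes were much steadier. Over PBS mice the SD of log2 CPM was 0.34 for Dlg4, 0.31 for Dlgap1, 0.25 for Dlg3 and 0.20 for Dlg2, against a median of 0.30 over the tested genes. For Homer1 it was 0.29. Gphn was among the steadiest genes of the table, from 52.3 to 66.9 CPM in PBS mice with an SD of 0.10, and 96.2% of tested genes had a larger one. Dlg2 and Dlgap1 have longest transcripts of 7813 and 7173 bases, against 7365 bases in Shank3, and a GC content of 44.3% and 50.9%, against 62.4%. The part of either in the spread was not tested.

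Members also varied in proportion to each other. The log2 ratio of Shank1 to Shank3 CPM ran from -0.73 in PBS mouse 103 to 1.15 in HsTX1[R14A] mouse 81, so the gene of the larger count was not the same in all mice. Shank2 and Shank3 moved together more closely, with a ratio from -1.20 to -0.38. The profiles of Shank2 and Shank3 over the 21 mice, each centered on its mean, differed by a root mean square of 0.21 on the log2 scale, and those of Shank1 and Homer1 by 1.36, the largest of the 36 pairs. Dlg2 and Gphn had the smallest difference, 0.16. The measure is not scaled by the spread of each gene, so steady genes differ little by it whether or not they move together.

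**Figure D2:**
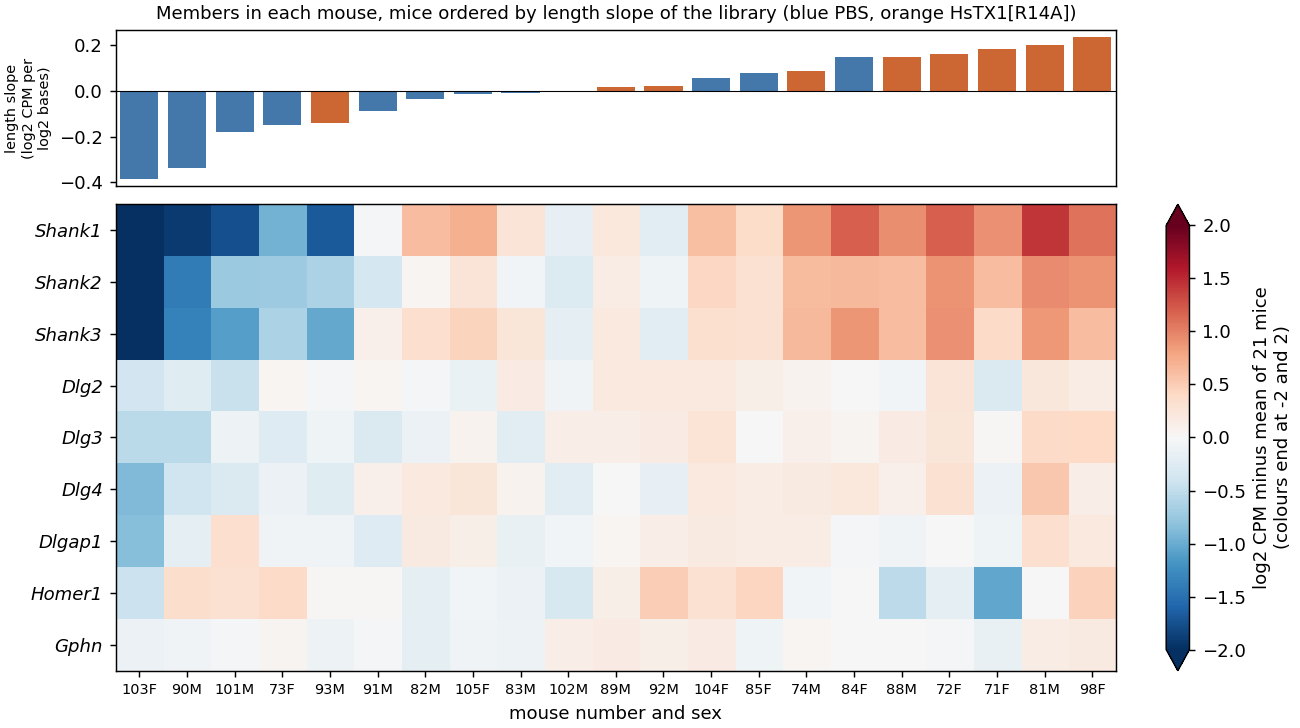
Upper bars give the length slope of each library (log2 CPM per log2 bases) and lower cells the log2 CPM of each gene minus its mean over the 21 mice, with mice in order of length slope, blue bars for PBS and orange for HsTX1[R14A]. Shank1, Shank2 and Shank3 were low in the 5 mice at the left, 103, 90, 101, 73 and 93, while Gphn hardly changed across the mice and Homer1 was lowest in mouse 71.

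Outside the members, the gene with the profile most like each of them over the 21 mice was found by the same measure among genes of mean log2 CPM 3 or more. These were Srcap for Shank1 (root mean square difference 0.27), Coro2b for Shank2 (0.11), Gm996 for Shank3 (0.15), Zfp146 for Dlg2 (0.12), Atcay for Dlg3 (0.07), Epn1 for Dlg4 (0.09), Sox5 for Dlgap1 (0.09), Kcnv1 for Homer1 (0.20) and Serinc3 for Gphn (0.07). For Shank1 the median over all such genes was 1.27 and for Gphn 0.27.

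In PBS mice alone, with no treatment difference, 6 of the 9 genes were higher in libraries with a larger length slope (edgeR's quasi-likelihood test with sex in the model, adjusted p at most 0.05 over 16039 genes). The same test called 56.1% of all genes, and 28.7% in this direction. Per 0.1 of slope, log2 CPM was higher by 0.82 in Shank1 (SE 0.10, adjusted p = 8.48e-06), 0.55 in Shank3 (SE 0.06, adjusted p = 2.98e-06) and 0.48 in Shank2 (SE 0.04, adjusted p = 3.29e-07). Dlg4 (0.18), Dlg3 (0.13) and Dlg2 (0.09) were called with smaller coefficients. Dlgap1 had 0.11 (adjusted p = 0.0578), Gphn 0.01 and Homer1 -0.01 (adjusted p = 0.904). The slope and the levels come from the same libraries, and with 1 library per mouse a property of the library and one of the mouse cannot be told apart.

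**Figure D3:**
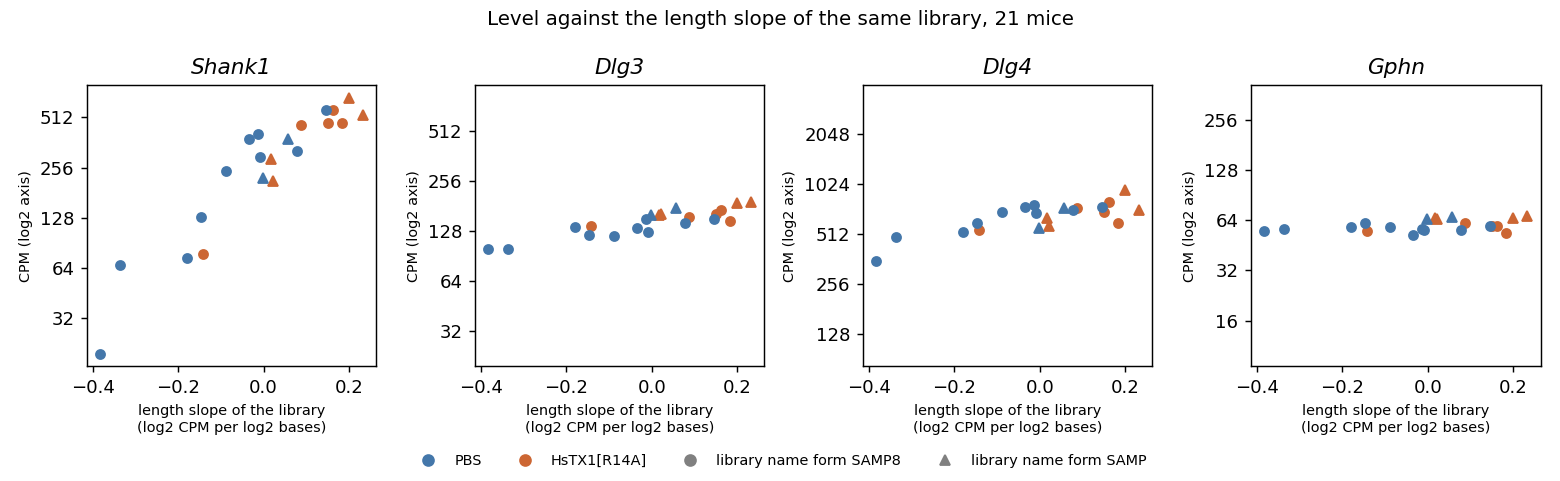
CPM (log2 axis, same 49-fold span in each panel) of Shank1, Dlg3, Dlg4 and Gphn against the length slope of the same library, 1 point per mouse, PBS in blue, HsTX1[R14A] in orange, circles for name form SAMP8 and triangles for SAMP. Shank1 climbed from 19.6 CPM at the lowest slope to 671 CPM, and Gphn stayed between 52.3 and 67.5 CPM across the slopes.

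Between HsTX1[R14A] and PBS mice, 2 of the 9 scaffold genes were called, Shank2 and Dlg3, and both were higher in HsTX1[R14A] mice (edgeR's quasi-likelihood test with sex in the model, adjusted p at most 0.05). The test called 31.6% of all 16303 genes, 15.5% as higher and 16.1% as lower, so 2 of 9 is not more than the table at large. The median log2 fold change was 0.14 over the 9 genes and -0.01 over all genes. In whole brain, fewer cells of a type and less RNA per cell cannot be told apart.

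**Figure D4:**
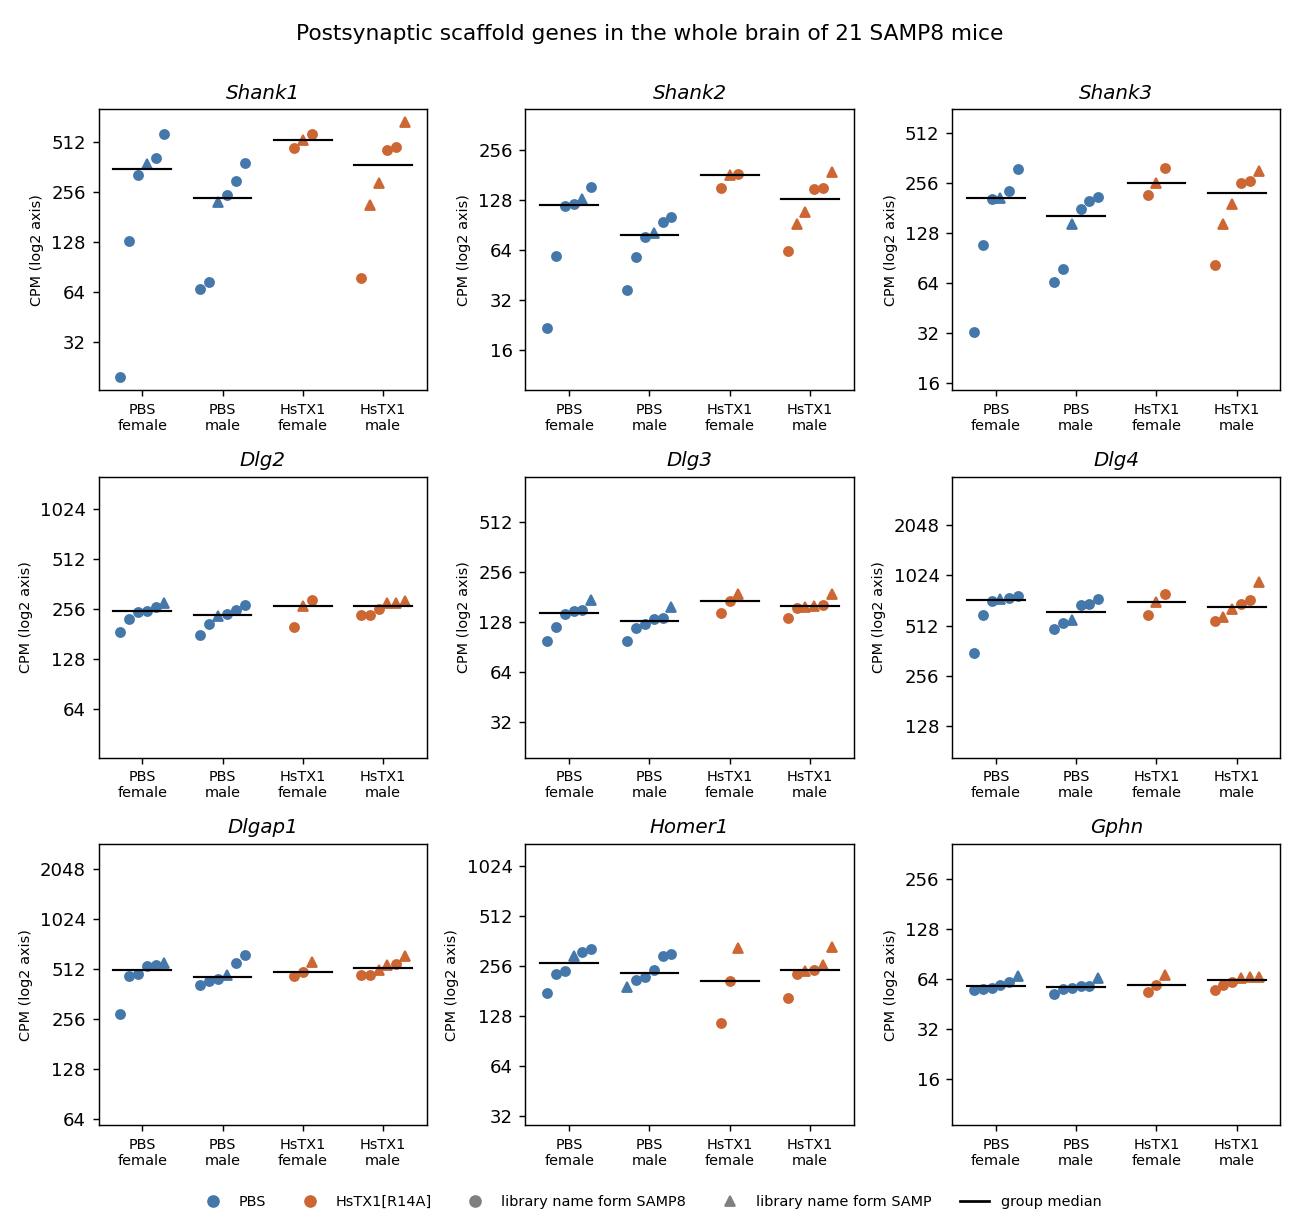
CPM (log2 axis, same 49-fold span in each panel) of the 9 genes, 1 point per mouse, in PBS females, PBS males, HsTX1[R14A] females and HsTX1[R14A] males, with a black line at each group's median, circles for name form SAMP8 and triangles for SAMP. Treated and untreated mice overlapped in every gene, and the low values of the Shank genes were mostly in PBS mice.

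Shank2 encodes a Shank protein of cerebellar and forebrain excitatory synapses. It measured 21.9 CPM at the lowest, 87.8 at the median and 154 at the highest in the 12 PBS mice, and 63.2, 151 and 190 CPM in the 9 treated mice. Of the treated mice, 8 of 9 exceeded the PBS median and 3 exceeded every PBS mouse, and the groups overlapped. The log2 fold change was 0.76 (SE 0.26, adjusted p = 0.0333), or 1.69-fold. The call was lost without any 1 of 7 of the 21 mice (adjusted p up to 0.0647) and without the sex term (adjusted p = 0.0643).

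Dlg3 encodes SAP102, a guanylate kinase that binds NMDA receptors and is prominent in developing neurons. It measured 99.1, 135 and 175 CPM (lowest, median and highest) with PBS and 137, 161 and 191 CPM with HsTX1[R14A]. All 9 treated mice exceeded the PBS median, 7 of the 12 PBS mice were below every HsTX1[R14A] mouse, and the ranges overlapped. The log2 fold change was 0.30 (SE 0.10, adjusted p = 0.0258), or 1.23-fold, the smaller of the 2 called differences. This call was lost without PBS mouse 90 or HsTX1[R14A] mouse 98 (adjusted p up to 0.0545).

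Shank1 and Shank3 also had higher mean levels in treated mice but did not pass the test. Shank1, the Shank protein of mature spines, measured 19.6, 271 and 569 CPM with PBS and 77.8, 472 and 671 CPM with HsTX1[R14A]. With 3 PBS mice below every treated mouse and 2 treated mice above every PBS mouse, its log2 fold change was 0.77 with an SE of 0.43 (adjusted p = 0.159). Shank3, whose human counterpart is lost in Phelan-McDermid syndrome, measured 32.4, 188 and 309 CPM against 82.3, 254 and 315 CPM, or 0.51 higher on the log2 scale (SE 0.30, adjusted p = 0.183). The 95% intervals from the standard error, -0.07 to 1.61 for Shank1 and -0.08 to 1.10 for Shank3, do not exclude a 2-fold difference.

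The remaining guanylate kinases and their partner gave smaller estimates, with intervals that include both 0 and the 0.30 of Dlg3. Dlg2 encodes PSD-93 and measured a median of 243 CPM with PBS and 269 CPM with HsTX1[R14A], with a log2 fold change of 0.14 (interval -0.03 to 0.31, adjusted p = 0.212). Dlg4 had medians of 685 and 692 CPM and a log2 fold change of 0.14 (interval -0.11 to 0.39, adjusted p = 0.403). Dlgap1, which links Dlg4 to the Shank proteins, had medians of 475 and 502 CPM and a log2 fold change of 0.09 (interval -0.12 to 0.31, adjusted p = 0.502).

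Homer1 and Gphn also did not pass the test. Homer1 encodes the adaptor that joins Shank proteins to metabotropic glutamate receptors, and it ranged from 178 to 323 CPM with PBS and from 117 to 336 CPM with HsTX1[R14A]. Both ends of the range over all mice belonged to the treated group, with 2 treated mice below and 2 above every PBS mouse, and the log2 fold change was -0.10 (interval -0.42 to 0.21, adjusted p = 0.639). Gphn had medians of 57.4 and 61.3 CPM and a log2 fold change of 0.07 (interval -0.04 to 0.19, adjusted p = 0.32), the tightest interval of the 9 genes.

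Without the 5 libraries of low length slope, which left 8 PBS and 8 HsTX1[R14A] mice, Shank2 and Dlg3 were again called, against 21.4% of 16292 genes. Shank2 then had a log2 fold change of 0.54 (SE 0.13, adjusted p = 0.00945) and Dlg3 of 0.23 (SE 0.08, adjusted p = 0.0427). Their medians were 110 and 152 CPM for Shank2 and 147 and 162 CPM for Dlg3, PBS first. Shank1 moved to 0.45 and Shank3 to 0.25 and neither was called. This choice of libraries was made after seeing the data. It did not even out the length slope, which ran from -0.0893 to 0.147 in the PBS mice left and from 0.0165 to 0.234 in the treated mice left. The part of the remaining slope in these calls was not tested.

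Neither called gene kept its call when the library property or the name form was in the model. With the length slope as covariate, 0 genes of 16303 were called (0%, edgeR, 1863 with an unadjusted p under 0.05). The log2 fold change was then -0.09 for Shank2, 0.07 for Dlg3, -0.67 for Shank1, -0.44 for Shank3 and -0.21 for Dlg4, with adjusted p from 0.288 to 0.755 in these genes. With 1 surrogate variable, 6.77% of genes were called and Shank2 had 0.22 (adjusted p = 0.0698), Dlg3 0.16 (adjusted p = 0.168) and Shank1 -0.13. After each library's trend on length and GC content was removed, 15% were called and Shank2 had 0.27 (adjusted p = 0.0595) and Dlg3 0.10 (adjusted p = 0.291). With the name form as covariate, 12.3% were called, and Shank2 had 0.71 (adjusted p = 0.0683) and Dlg3 0.23 (adjusted p = 0.0575). Over 15 alternatives other than leaving out single mice, the adjusted p ran from 0.00945 to 0.992 for Shank2 and from 0.00811 to 0.881 for Dlg3. Because the slope differs between the treatments, its part in the treatment difference and that of the treatment cannot be told apart with these libraries.

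**Figure D5:**
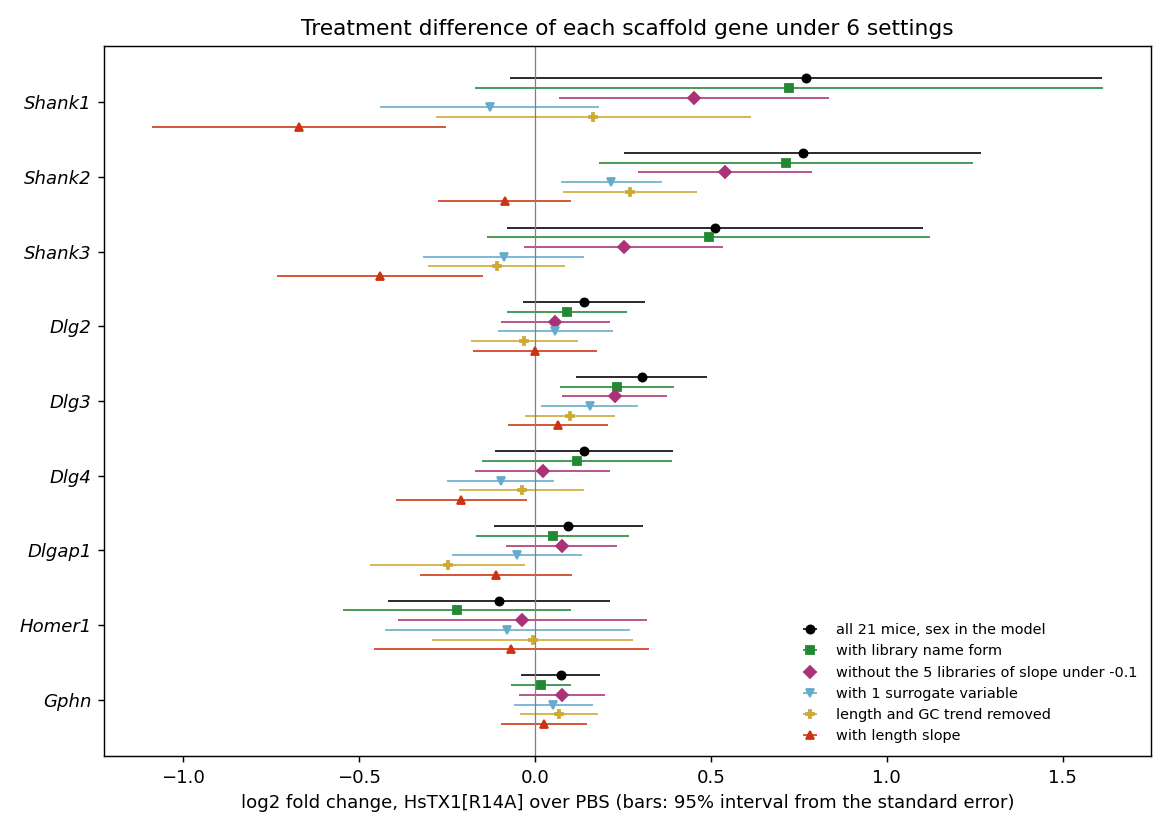
Log2 fold change (HsTX1[R14A] over PBS) of each gene under 6 settings, with bars for the 95% interval from the standard error. The Shank genes moved from above 0 with sex alone in the model to below 0 with the length slope (Shank1 from 0.77 to -0.67), Dlg3 stayed above 0, and Gphn stayed between 0.02 and 0.08.

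Within the 15 mice of name form SAMP8, the log2 fold change was 0.77 for Shank2 (adjusted p = 0.132), 0.29 for Dlg3 (adjusted p = 0.0833) and 0.75 for Shank1, and 0 genes were called (edgeR, 5797 at p under 0.05 before adjustment). Within the 6 mice of name form SAMP, 2 PBS and 4 HsTX1[R14A], it was 0.61 for Shank2, 0.11 for Dlg3 and 0.68 for Shank1, and 0 genes were called (532 with an unadjusted p under 0.05). Dlg3 itself had the higher median in form SAMP in both treatments. Among PBS mice it measured 159 and 175 CPM in that form and at most 152 CPM in the other, and among treated mice 159 to 191 against 137 to 171 CPM. Homer1 went in opposite directions, -0.43 in the first form and 0.38 in the second, with adjusted p of 0.107 and 0.855. Its 4 treated mice of form SAMP measured 239 to 336 CPM and its 5 treated mice of form SAMP8 117 to 244 CPM. Gphn was higher in form SAMP in both treatments. It measured 65.1 and 66.9 CPM in the 2 PBS mice of that form and at most 61.6 CPM in the 10 of the other, and 64.8 to 67.5 against 53.7 to 61.3 CPM in treated mice. The difference between the name forms was not tested for any gene. The share of all genes that differ between the forms was not counted, so whether Dlg3 and Gphn stand out in this is not known.

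For Shank1, Shank2 and Dlg3 the sexes gave like values in the treatment comparison. In females (6 PBS and 3 HsTX1[R14A]) the log2 fold change was 0.77 for Shank2, 0.28 for Dlg3 and 0.78 for Shank1. In males (6 and 6) it was 0.76 for Shank2, 0.33 for Dlg3 and 0.77 for Shank1. Shank3 had 0.53 in females and 0.51 in males, Dlgap1 0.09 and 0.10, and Dlg4 0.10 and 0.17. Less alike were Dlg2 with 0.07 in females and 0.19 in males, Gphn with 0.02 and 0.11, and Homer1 with -0.27 and 0.01. Neither sex alone gave a called gene (edgeR and limma/voom, 0 each, with 3312 unadjusted p under 0.05 in females and 4440 in males by edgeR). The treated females measured 151, 183 and 183 CPM for Shank2 and 147, 171 and 191 CPM for Dlg3. Homer1 in the same 3 females was 117, 210 and 329 CPM, a 2.82-fold range. The difference in effect between the sexes was tested with an interaction term, which called 0 genes (edgeR, 270 with an unadjusted p under 0.05), and was 0.02 for Shank2 (interval -1.05 to 1.08) and -0.04 for Dlg3 (interval -0.44 to 0.35). Intervals this wide for the Shank genes do not show that the sexes respond alike. Between female and male PBS mice, 6 of 16039 genes were called (0.0374%), and none was a scaffold. The medians of Shank1 were 350 CPM in PBS females and 234 CPM in PBS males, and the log2 difference of 0.50 had an SE of 0.61 (adjusted p = 0.967). Dlg3, the X-linked member, differed by 0.12 (SE 0.14, adjusted p = 0.967).

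The scaffold families have 16 other members in a list that, like the lists below, was chosen with earlier results of these data known. The called shares of these lists are therefore descriptive. Of the 16 genes, 5 were higher, 1 was lower and 10 did not pass, with a median log2 fold change of 0.23. Mpp2, a guanylate kinase of the same superfamily, had 0.61 (SE 0.16, adjusted p = 0.018) and Magi3, an inverted guanylate kinase scaffold, 0.31 (adjusted p = 0.0214). Lin7c, a small PDZ protein that partners Cask, was lower at -0.30 (adjusted p = 0.0317). In all, 37.5% of the list were called, against 31.6% of all genes. With the length slope as covariate the median of the list was 0.02 and none was called.

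Of 30 other proteins of the excitatory postsynapse, 10 were higher and 3 lower (43.3% called, against 31.6% of all genes), with a median of 0.33. Synpo, the synaptopodin of the spine apparatus, rose from 97.9 ± 35.0 to 157 ± 44.6 CPM (SD, n = 12 and 9), or 0.73 on the log2 scale (adjusted p = 0.0212), and Cttn, the actin-binding cortactin that Shank proteins bind, had 0.33 (adjusted p = 0.0219). Cript, a small protein that binds the PDZ domains of PSD-95, fell by 0.57 on the log2 scale (adjusted p = 0.0199) and Abi1, an actin regulator bound by Shank3, by 0.27 (adjusted p = 0.0256). In PBS mice, 24 of the 30 were higher and 3 lower in libraries of larger length slope. With that slope in the treatment model the median of the list was -0.05 and none was called.

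A list of 21 genes held glutamate receptors and their auxiliary subunits, and also other synaptic proteins, such as neuroligins, that are neither. Of the 21 genes, 8 were higher and 0 lower (38.1% called, against 31.6% of all genes and 15.5% higher), with a median of 0.33. Grin2b, the NMDA receptor subunit bound by SAP102 and PSD-95, rose from 179 ± 75.4 to 315 ± 114 CPM, or by 0.89 on the log2 scale (SE 0.22, adjusted p = 0.0169), and its longest transcript has 24060 bases. With the length slope in the model the median was 0.02.

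Around gephyrin, 17 partners of the inhibitory postsynapse were tested, of which 4 were higher and 2 lower (35.3% called, against 31.6% of all genes). Gabrb2, a GABA-A receptor subunit, had a log2 fold change of 0.43 (adjusted p = 0.0161) and Slitrk3, an adhesion protein of inhibitory synapses, 0.37 (adjusted p = 0.0183). Glrb, the glycine receptor subunit that gephyrin binds directly, was lower at -0.26 (adjusted p = 0.0285), and Gabarap, which binds GABA-A receptors and gephyrin, at -0.47 (adjusted p = 0.0305). Gephyrin also completes the molybdenum cofactor, and of 8 genes of that pathway 1 was called (12.5%), Mocs2, which was lower at -0.47 (adjusted p = 0.0212). Medians of these lists were 0.12 for the inhibitory partners and 0.07 for the cofactor pathway, and with the length slope in the model 0.00087 and -0.13.

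Neuronal immediate early genes, which report recent neuronal activity, were higher in 8 of 14 and lower in 0, with a median of 0.61. Of all genes, 15.5% were called higher and 31.6% called in either direction. Fos rose by 0.88 (SE 0.22, adjusted p = 0.017) and Egr4 by 0.99 (SE 0.27, adjusted p = 0.0186) on the log2 scale. Of the 14 genes, 10 were higher with the length slope among PBS mice, and with the slope in the model the median was 0.21 and none was called.

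Markers of cell types and regions were set beside the scaffold genes, and their part in the differences was not tested. Over all genes, 15.5% were called higher and 16.1% lower. Neuron markers were higher in 3 of 13 (Eno2 at 0.37 and Nefm at 0.61), and their summed level ran from 7083 to 10463 CPM with PBS and from 8575 to 12148 CPM with HsTX1[R14A]. Oligodendrocyte markers were lower in 6 of 10 (Mobp at -0.67 and Opalin at -0.99, 4592 to 6969 against 3462 to 5115 CPM) and microglia markers in 4 of 11 (P2ry12 at -0.65 and C1qb at -0.43, 443 to 643 against 376 to 561 CPM). Astrocyte markers were split, with Fgfr3 and Slc4a4 higher at 0.32 each and Gfap and Aldoc among 3 lower at -0.59 and -0.20 (3094 to 5127 against 3302 to 5202 CPM). Endothelial markers were higher in 2 of 8, Flt1 and Kdr (73.2 to 138 against 88.5 to 155 CPM). None of the markers of choroid plexus (7 genes, 69.5 to 1132 against 59.4 to 836 CPM), red blood cells (5, 5.82 to 157 against 15.1 to 87.6 CPM), cerebellum (10, 562 to 976 against 624 to 1689 CPM), striatum (9, 1057 to 2274 against 590 to 2352 CPM), cortex and hippocampus (10, 262 to 686 against 465 to 853 CPM) or hypothalamus and pituitary (8, 4.85 to 364 against 4.37 to 188 CPM) was called by edgeR. Of these 49 genes, 4 had an unadjusted p under 0.05, and limma/voom called 0 and DESeq2 2. Median log2 fold changes were -0.36 for choroid plexus, 0.34 for red blood cells and 0.66 for cerebellum. They were 0.01 for striatum, 0.12 for cortex and hippocampus and -0.06 for hypothalamus and pituitary, so the absence of calls does not show that regional make-up was equal. The genes with the smallest p in these lists were Sostdc1 (-0.61), Hbb-bs (0.63), Cbln1 (1.03), Pde10a (0.34), Bcl11b (0.34) and Pomc (-1.05), with adjusted p from 0.06 to 0.276. Hba-a2, Gabra6, Pcp2, Gh, Hcrt and Prl were at 0 in at least 1 mouse, and every marker of neurons and glia was detected in every mouse.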

How the data were processed

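Whole-brain RNA of 21 SAMP8 mice was sequenced with 1 library per mouse. The authors aligned reads to GRCm38 with STAR, quantified them with Salmon (nf-core/rnaseq 3.2) and deposited estimated counts of 16318 genes, not normalized. Labels and methods name different library kits. The authors' CPM, fold change, p-value and FDR columns (53 per-sample columns, 37 of CPM and 16 of counts of other libraries) were not used. Counts were rounded, and 90.5% lay within 0.01 of a whole number. After filterByExpr and TMM scaling, edgeR 4.0.16 in R 4.3.3 fitted sex and treatment by quasi-likelihood (glmQLFit, glmQLFTest), with Benjamini-Hochberg adjustment over all tested genes and an FDR of 0.05. The SE is the fold change over the square root of F. Deposited table headers gave the name forms.

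Totals ran from 14917174 to 47613792 counts. Transcript length and GC content came from the longest GENCODE M21 transcript (99.5% of tested genes). Log2 CPM for slopes and profiles has a prior count of 2. Named genes were all 9 members, from each list the 2 called genes of smallest p in each direction (or 1 where none was called), and the most similar gene of each member. 1 list gene that this rule names is not reported here. Members and lists were chosen with earlier results of these data known. P-values set a difference against the spread between these mice, which with 1 library per mouse includes the spread between libraries. Alternatives were limma/voom (limma 3.58.1), DESeq2 1.42.0, RLE scaling, 2 filters, no sex term, name form, length slope or GC slope as covariate, 1 surrogate variable (sva 3.50.0), quality weights, loess (span 0.5) trend removal, the mice of 1 name form only, and leaving out each mouse. On simulated data for HsTX1[R14A] against PBS, edgeR recovered 185 of 200 genes changed 2-fold, with 8 false calls among 16296 genes. The number of false calls where the length slope differs between the treatments, as in these libraries, was not tested.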

Additional observations from a re-analysis of the deposited data

Results flagged for a closer look

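Values of 2 genes stood far from the others of their group of 6 PBS females, both in mouse 103. Dlg4 measured 351 CPM in that mouse, and the next female had 593 CPM, a gap of 0.671 of the group's range and more than Dixon's limit for 6 mice. Dlgap1 measured 272 CPM, and the next female had 465 CPM, a gap of 0.749 of the range. In all, 27 groups of 4 to 10 mice were examined over the 9 genes, and chance alone flags about 1 in 20. Mouse 103 also had the lowest length slope, -0.383, and the lowest total, 14917174 counts, and the part of these in the 2 values was not tested. Without it the log2 fold change in females was -0.02 for Dlg4 and -0.03 for Dlgap1.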

How the results depend on the processing

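The counts of 5144 called genes and 2 called scaffolds held within 1.5 times under limma/voom, DESeq2, RLE scaling, both filters, quality weights and without the 5 libraries of low slope. They became 2984 genes and 1 scaffold without a sex term, 1999 and 0 with the name form, 1104 and 0 with 1 surrogate variable, 2438 and 0 after loess removal, and 0 and 0 with the length slope, with the GC slope (1491 at p under 0.05 before adjustment), in the 15 mice of form SAMP8 and in the 6 of form SAMP, where fewer mice were tested. The part of the smaller number of mice was not tested, nor was the cause for the other settings. Leaving out 1 mouse gave 2289 (without PBS mouse 90) to 6614 genes (without HsTX1[R14A] mouse 93) and 0 to 2 scaffolds. Beyond mouse 90, the count fell by over 1.5 times without HsTX1[R14A] mice 71 (3332), 81 (3263), 88 (3121) or 98 (3005). Shank2 lost its call without 7 of the mice (PBS 90 and 101, HsTX1[R14A] 72, 74, 81, 88 and 98, adjusted p up to 0.0647, edgeR), and Dlg3 without PBS 90 or HsTX1[R14A] 98. In males the count ran from 0 to 1879, the latter without mouse 93, where Shank2 (0.90) and Dlg3 (0.37) were called.

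Directions turned with the length slope for Shank1 (-0.67), Shank2 (-0.086), Shank3 (-0.44), Dlg4 (-0.21) and Dlgap1 (-0.11), with the GC slope for Shank1 (-0.53), Shank3 (-0.36), Dlg4 (-0.17), Dlgap1 (-0.058) and Homer1 (0.049), with 1 surrogate variable for Shank1 (-0.13), Shank3 (-0.089), Dlg4 (-0.10) and Dlgap1 (-0.050), after loess removal for Shank3 (-0.11), Dlg2 (-0.031), Dlg4 (-0.037) and Dlgap1 (-0.25), and in form SAMP for Homer1 (0.38). None of these passed the test. With 1 mouse left out, Homer1 ran from -0.22 to 0.0049, in females from -0.69 to 0.035 and in males from -0.11 to 0.087. In females Dlg2 ran from -0.045 to 0.21, Dlg4 from -0.024 to 0.21, Dlgap1 from -0.030 to 0.15 and Gphn from -0.074 to 0.091. Under limma/voom, Homer1 per 0.1 of slope was 0.0085, and the interaction of Dlgap1 was 0.025 (0.0056 with RLE). The paper states that treatment was assigned at random within each cage. The labels used here give no cage and mouse numbers are not shared between the groups, so no paired or cage-blocked analysis was possible.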
